A study of Homo sapiens with 6 samples.

Results

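The genes for the protein factors that start and extend protein synthesis were followed in MCF10A cells, an established and non-tumorigenic line of human breast epithelial cells, after depletion of the transcription factor PAX9. The members are all gene symbols of the deposited expression table that begin with EIF1 to EIF6, EEF1 or EEF2. The eIF2 kinases and antisense transcripts were left out. The rule found 64 of the 26822 symbols in the table. Of these, 60 reached the minimum of 1 FPKM in at least the higher of both groups, as did 13622 symbols of any kind. The 60 symbols come from 58 rows and are counted as separate genes below. EIF3C shares its row with EIF3CL, and EEF1E1 shares its row with the joint symbol EEF1E1-BLOC1S5. FPKM counts sequenced fragments relative to transcript length and to library size, so levels of different genes can be set side by side. This is uncertain for genes with near-identical copies elsewhere, described below. EEF1A2, EIF4E1B, EIF1AY and EEF1DP3 stayed under the minimum.

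Both groups had 3 samples and were grown and transfected in the same way, with 30 nM of siRNA for 72 hours. One group (siNT) received non-targeting siRNAs and the other (siPAX9) received siRNAs against PAX9, and RNA selected for poly(A) was sequenced. The deposited table holds 1 FPKM per group for each of 41656 rows, made by the authors from the 3 samples together, and gives no value, count or read depth per sample. The spread between samples cannot be read from these values, no test could be made from them, and every difference given here is a comparison of 2 combined values. A gene is called lower or higher where its FPKM differed at least 2-fold.

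PAX9 itself stood at 2.80 FPKM (siNT) against 0.325 FPKM (siPAX9), a log2 ratio of siPAX9 over siNT of -3.10, and a log2 ratio of -1.52 with 1 added to each FPKM. The keratins KRT5 and KRT17, which mark basal epithelial cells, were high in both groups, at 1558 and 1718 FPKM in siNT and 1807 and 2088 FPKM in siPAX9. The other basal markers KRT14, TP63, CDH3 and EGFR were between 25.3 and 142 FPKM. Of the 3 markers of other cell types, the collagen gene COL1A2 and the leukocyte gene PTPRC were under 0.1 FPKM in both groups, and the endothelial gene PECAM1 was at 2.58 and 0.495 FPKM. The intermediate filament gene VIM was at 301 FPKM in siNT and 53.5 FPKM in siPAX9, and the epithelial markers EPCAM and KRT18 at 34.3 and 16.7 FPKM and at 212 and 119 FPKM, and the part of these differences in the results below was not tested. FPKM is relative to the library, so fewer cells of one kind and less RNA per cell cannot be told apart.

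Translation begins when eIF2 brings the initiator tRNA to the small ribosomal subunit, which the large scaffold eIF3 also binds. The cap-binding complex eIF4F, in which eIF4E binds the cap, eIF4G is the platform and eIF4A the helicase, recruits the mRNA, and eIF4E-binding proteins block the contact between eIF4E and eIF4G. During elongation eEF1A carries aminoacyl-tRNA to the ribosome, the eEF1B complex recharges eEF1A with GTP, and eEF2 moves the ribosome by a codon.

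The factor genes were mostly lower in siPAX9 than in siNT. Of the 60 genes past the minimum, 50 (83.3%) had a lower FPKM in siPAX9 by any amount, against 54.8% of all symbols past that minimum, and their median log2 ratio was -0.39, against -0.07 for all symbols. The differences were mostly small. Only 6 genes (10%) were at least 2-fold lower, against 7.22% of all symbols, and 1 gene (1.67%) was at least 2-fold higher, against 7.75%. The other 53 genes lay within 2-fold, and 10 genes differed by at most 0.1 on the log2 scale. The 6 lower genes were EIF4EBP1, EIF3L, EIF2A, EIF4B, EIF2S3 and EIF3E, and the higher gene was EIF4E2. At the threshold, EIF3E was just inside with a log2 ratio of -1.05 and EEF2 just outside with -0.96.

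**Figure D1:**
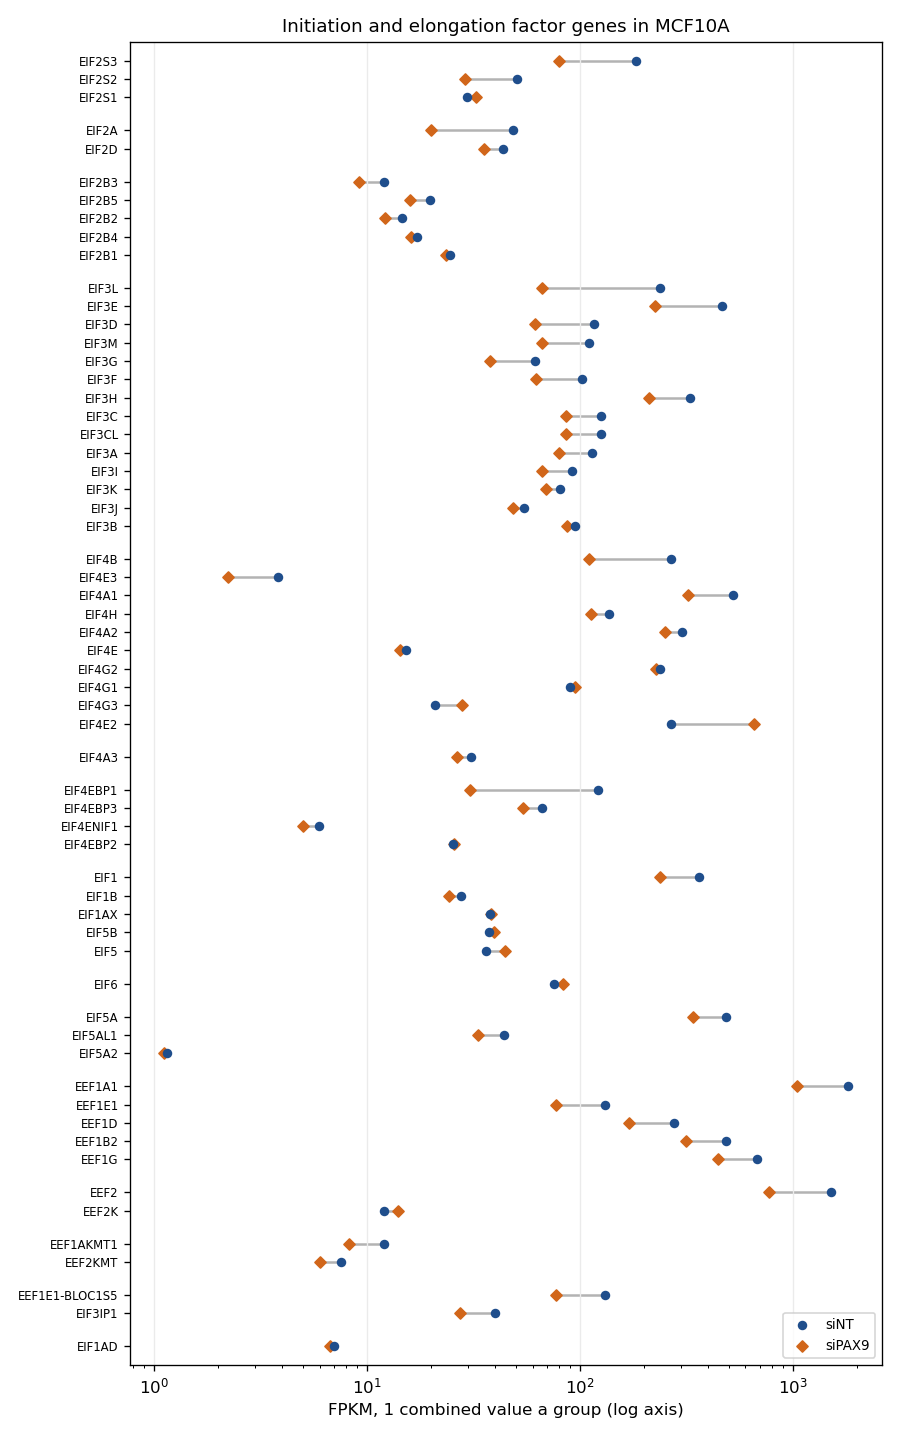
FPKM of the 60 genes past the minimum in siNT (circles) and siPAX9 (diamonds) on a log axis, 1 combined value a group without error, ordered by role and within a role by log2 ratio. The grey line joins both values of a gene, and siPAX9 lies to the left of siNT for 50 genes.

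Genes at high levels were lower in siPAX9 more often in the table as a whole, and the factor genes include many of these. For symbols with a mean FPKM from 1 to 10 the median log2 ratio was 0.02, and it was -0.08 from 10 to 30, -0.19 from 30 to 100, -0.27 from 100 to 300 and -0.62 from 300 upward. The factor genes in the same ranges had medians of -0.26 (5 genes), -0.14 (12 genes), -0.35 (22 genes), -0.67 (12 genes) and -0.63 (9 genes). At 300 FPKM and above the factor genes thus lay about level with all symbols. That set includes the factor genes themselves and many cytoplasmic ribosomal proteins, whose median over all levels was -0.75. From 100 to 300 FPKM the factor genes lay further below all symbols. Among the 21 factor genes with a mean FPKM of at least 100, 20 (95.2%) were lower in siPAX9 by any amount, against 72.2% of all symbols at that level. At least 2-fold lower were 4 of them (19%), against 11.1%, and at least 2-fold higher was 1 (4.76%), against 5.06%. This gene was EIF4E2, and read from the row of its own strand (33.5 and 33.9 FPKM) it was not at this level, leaving 20 of 20 lower by any amount and 0 at least 2-fold higher.

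**Figure D2:**
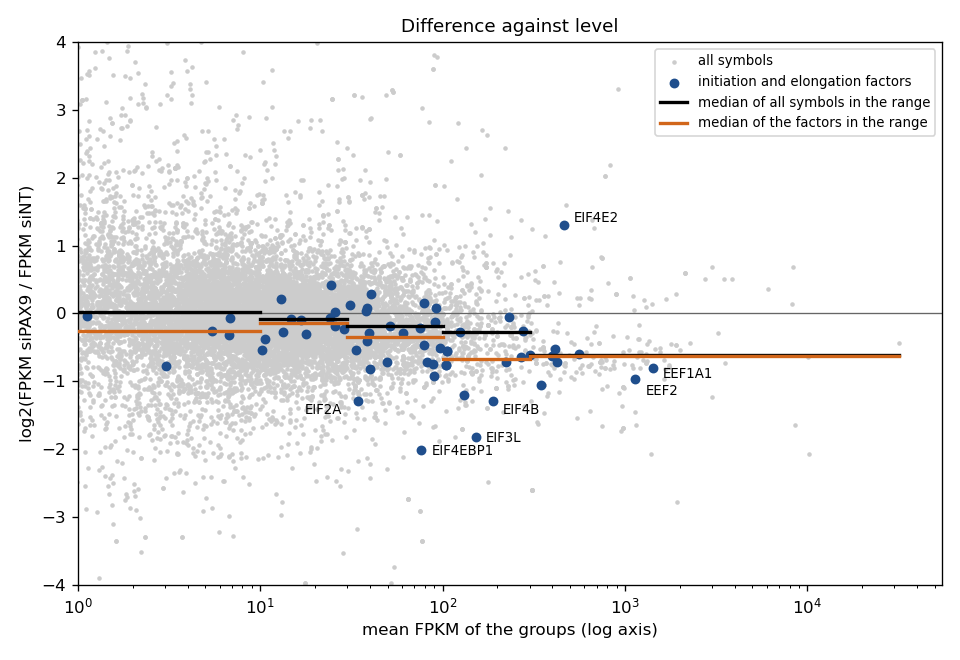
Log2 ratio of siPAX9 over siNT (vertical axis) against the mean FPKM of both groups (horizontal log axis) for all symbols past the minimum (grey) and for the factor genes (blue), with the median of each in 5 ranges of level as black and orange lines. Not drawn are 252 symbols beyond 4 on the log2 scale or listed at 0 in one group, and symbols with a mean FPKM under 1. The lines meet from 300 FPKM upward and the orange line is lower from 100 to 300 FPKM.

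The transcripts of ribosomal proteins and many translation factors are known to start with a C followed by an unbroken run of pyrimidines, the 5′ terminal oligopyrimidine form, through which growth signals control their translation. The member rule did not use this feature, so RefSeq start sites (build GRCh38.p14) were read for a C at the start base followed by at least 4 further C or T, on the strand of the gene only. Of the 64 symbols, 50 were matched in the RefSeq table, 48 of them past the minimum. EEF1A2, EEF1AKMT1, EEF1D, EEF1DP3, EEF2KMT, EIF2S2, EIF3A, EIF3CL, EIF3E, EIF3G, EIF3H, EIF3IP1, EIF3L and EIF4EBP1 were not matched. A pyrimidine start was present in 12 of the 48 genes, which is 25% with a 95% Wilson interval of 14.9 to 38.8% that covers counting error only. It was present in 7.34% of all 9690 matched symbols past the minimum and at 4.07% of the 35116 starts in the RefSeq table.

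Windows of 30 bases from 10 before the start base are shown for matched elongation factors and for the matched genes called lower, with any pyrimidine run in capitals. For contrast EIF2S1 and EIF4G1, partners of EIF2S3 and EIF4B in the same complexes, are shown without a run. Among the elongation factors EEF1G has no run, and EEF1B2 has it at only 1 of its 2 starts, both shown. EEF1E1, also counted with eEF1 here, was matched, has no run and is not shown. A gene was counted as having the start where any of its starts had it. EIF4G1 has more than 1 start in the table, none with a run, and 1 is shown.
EEF1A1, chr6:73521013-73521042, minus strand: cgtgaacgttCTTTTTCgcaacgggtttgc
EEF1B2, chr2:206159885-206159914, plus strand: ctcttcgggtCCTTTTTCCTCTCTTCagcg
EEF1B2, other start, chr2:206159599-206159628, plus strand: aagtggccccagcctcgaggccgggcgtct
EEF1G, chr11:62573872-62573901, minus strand: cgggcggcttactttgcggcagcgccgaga
EEF2, chr19:3985444-3985473, minus strand: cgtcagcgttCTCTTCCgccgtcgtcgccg
EIF2S3, chrX:24054946-24054975, plus strand: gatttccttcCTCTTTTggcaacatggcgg
EIF2A, chr3:150546777-150546806, plus strand: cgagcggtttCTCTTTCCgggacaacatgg
EIF4B, chr12:53006446-53006475, plus strand: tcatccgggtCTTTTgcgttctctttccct
EIF2S1, chr14:67360318-67360347, plus strand: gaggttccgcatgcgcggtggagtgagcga
EIF4G1, chr3:184314596-184314625, plus strand: gcggggagccggaaatggttgtggactacg

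All 12 genes with a pyrimidine start had a lower FPKM after PAX9 depletion, with a median log2 ratio of -0.77 and a range from -1.29 to -0.22. Beside the genes shown they were EIF3D, EIF3F, EIF3K, EIF3M, EIF4A2 and EIF2D. Of the 36 genes without it, 26 (72.2%) were lower by any amount and none at least 2-fold, with a median of -0.19. The 12 genes past the minimum that were not matched, whose starts were therefore not read, were all lower as well, with a median of -0.67, and hold 3 of the 6 genes called lower (EIF4EBP1, EIF3L and EIF3E). Among the other symbols past the minimum, ribosomal proteins left out, 447 of 652 with a pyrimidine start (68.6%) and 4875 of 8923 without it (54.6%) were lower, with medians of -0.23 and -0.06. The cytoplasmic ribosomal proteins were alike in this, with a median of -0.75 for 47 genes with the start and -0.73 for 20 genes without it. A gene scored without the start lacks the run at the annotated base, and a run beginning a few bases away was not counted. With a C allowed within 3 bases, 18 of the 48 factor genes had it, and the medians were not recomputed. Factor genes with a pyrimidine start had a mean FPKM of at least 100 more often (6 of 12, against 10 of 36), so the medians were also taken by level. At a mean FPKM of at least 100 the medians were -0.88 with the start (6 genes) and -0.58 without (10 genes), and under 100 they were -0.73 (6 genes) and -0.09 (26 genes). These medians are descriptions over genes, which are no replicates of a condition.

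**Figure D3:**
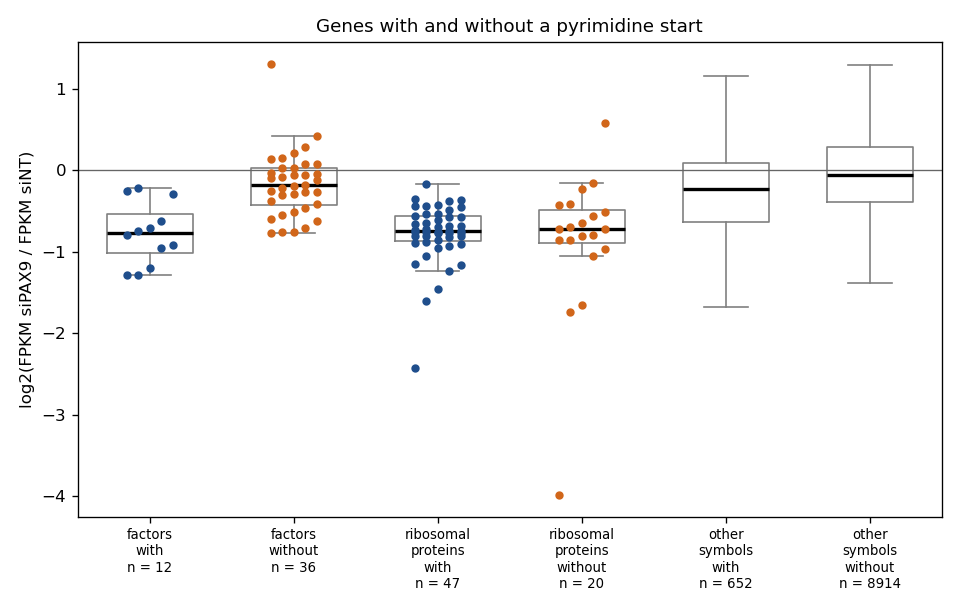
Log2 ratio of siPAX9 over siNT for matched symbols with and without a pyrimidine start among the factor genes, the cytoplasmic ribosomal proteins and the other symbols, without those listed at 0 in one group. Boxes span the quartiles with the median as a black line and whiskers reach 1.5 quartile ranges at most, and points are single genes. The factor genes with the start all lie below 0, and the ribosomal proteins lie at a like level in both columns.

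The subunits of eIF2, the trimer that binds GTP and the initiator tRNA, went apart. EIF2S3, the gamma subunit that holds GTP and the tRNA, at chrX:24073065-24096927 (hg19), was at 184 FPKM in siNT and 80.3 in siPAX9, a log2 ratio of -1.20. EIF2S2, the beta subunit, was at 50.9 and 28.9 FPKM (-0.82). EIF2S1, the alpha subunit that is phosphorylated under stress, was at 29.6 and 32.4 FPKM (0.13). The level of EIF2S3 was 6.23 times that of EIF2S1 in siNT and 2.48 times in siPAX9, and the level of EIF2S2 was 1.72 and 0.891 times that of EIF2S1. A 1444-base row without a symbol that matched EIF2S3 was at 220 FPKM in siNT, so the ratios of EIF2S3 are uncertain.

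EIF2A, a separate protein that can bring initiator tRNA to the ribosome without being part of eIF2, at chr3:150264465-150303803, was at 48.8 FPKM in siNT and 20.0 in siPAX9 (-1.29). Of all symbols past the minimum, 4.4% had a lower ratio. EIF2D, which acts in non-canonical initiation and recycling, was at 43.5 and 35.6 FPKM (-0.29). The 5 subunits of eIF2B, the exchange factor that recharges eIF2 with GTP, were all slightly lower in siPAX9, against 54.8% of all symbols. EIF2B4 and EIF2B1 lay near the median of all symbols (-0.07). Their log2 ratios ran from -0.37 (EIF2B3, 12 and 9.22 FPKM) over -0.31 (EIF2B5), -0.27 (EIF2B2) and -0.09 (EIF2B4) to -0.07 (EIF2B1, 24.7 and 23.6 FPKM).

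All 14 symbols of eIF3 had a lower FPKM after PAX9 depletion. They come from 13 rows of the table. Their median log2 ratio was -0.60, and 2 were at least 2-fold lower, against 7.22% of all symbols called lower and 54.8% lower by any amount, or 11.1% and 72.2% at a mean FPKM of at least 100. EIF3L, at chr22:38245379-38284789, was at 237 FPKM in siNT and 66.5 in siPAX9 (-1.83), a ratio below which only 2.01% of all symbols lay. EIF3E was at 468 and 226 FPKM (-1.05), the highest eIF3 subunit in both groups. Both belong to the octamer of subunits that forms the core of eIF3.

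The partner of EIF3L within the octamer did not go with it. EIF3K, which pairs with EIF3L at one end of the octamer, was at 80.9 FPKM in siNT and 69.3 in siPAX9 (-0.22). The level of EIF3L was thus 2.93 times that of EIF3K in siNT and 0.96 times in siPAX9. Because 10 rows without a symbol matched EIF3L, these ratios are uncertain. The other octamer genes lay between EIF3E and EIF3K, with EIF3M at -0.75, EIF3F at -0.71, EIF3H at -0.64, EIF3C and its copy EIF3CL at -0.55 and EIF3A, the largest scaffold subunit, at -0.51. EIF3C and EIF3CL share both their rows, so they are 1 measurement.

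The 5 subunits outside the octamer had a median of -0.47, against -0.64 for the 9 octamer symbols. EIF3D, a subunit that can bind the cap of some mRNAs, was lowest at 117 and 61.9 FPKM (-0.92). EIF3G, one of the RNA-binding subunits, was at 61.9 and 37.7 FPKM (-0.72), and EIF3I followed with a log2 ratio of -0.47. EIF3J, which is loosely attached, and EIF3B, a scaffold subunit, were close to level with -0.18 and -0.13.

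The cap-binding complex and its helpers had members on both sides, with a median of -0.17 over 10 genes. Of these 7 were lower, against 54.8% of all symbols, or 72.2% at a mean FPKM of at least 100. EIF4B, which stimulates the eIF4A helicase, at chr12:53400042-53435993, was at 268 FPKM in siNT and 110 in siPAX9 (-1.29). EIF4A1, the main helicase, was at 526 and 322 FPKM (-0.71), in a row that also holds SENP3 and a small RNA. Its close paralog EIF4A2 was at 301 and 252 FPKM (-0.26), and EIF4H, a further helicase cofactor, at 137 and 113 FPKM (-0.27).

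EIF4E, EIF4G1 and EIF4G2 were near level, while other cap-binding and platform genes differed more. EIF4E, which binds the cap, was at 15.2 FPKM in siNT and 14.3 in siPAX9 (-0.08). EIF4G1, the main platform, was at 89.6 and 94.7 FPKM (0.08), and EIF4G2, a related protein without the eIF4E site, at 237 and 228 FPKM (-0.05). EIF4G3, the second platform, was at 20.8 and 27.9 FPKM (0.42). EIF4E3, a weak cap-binding relative of eIF4E, was low in both groups, at 3.82 and 2.23 FPKM (-0.77, and -0.58 with 1 added to each FPKM). EIF4A3, the helicase relative that serves in the exon junction complex, had a log2 ratio of -0.23.

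EIF4E2, a cap-binding protein that represses translation, was the only gene called higher, and its value depends on which row is read. The symbol has 4 rows at chr2:233412680-233450700. The row with the highest level gave 267 FPKM in siNT and 658 in siPAX9 (1.30). The number of this row lies among those of genes on the minus strand, as 0% of the 20 named rows before it and the 20 after it are on the plus strand, whereas EIF4E2 is annotated on the plus strand. The row that lies among genes of the plus strand gave 33.5 and 33.9 FPKM (0.02). The other 2 rows were at 1.69 and 1.90 FPKM in siNT. Read from its own strand, EIF4E2 was therefore level and no factor gene was at least 2-fold higher. EIF3A also has a row on either strand, at 114 and 79.6 FPKM (-0.51) and, on its own strand, 109 and 81.8 FPKM (-0.42).

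EIF4EBP1, the eIF4E-binding protein that holds eIF4E off eIF4G until mTORC1 phosphorylates it, showed the largest difference of the 60 genes on the log2 scale. It was at 122 FPKM in siNT and 30.5 in siPAX9 (-2.01), with 1.75% of all symbols at a lower ratio. Its paralog EIF4EBP2 was at 25.5 and 25.8 FPKM (0.02). The level of EIF4EBP1 was 4.81 times that of EIF4EBP2 in siNT and 1.18 times in siPAX9, and relative to EIF4E it was 8.08 and 2.13 times. EIF4EBP2 stood at 1.68 and 1.80 times the level of EIF4E. EIF4EBP3 shares its row with ANKHD1, a longer neighbouring gene, and that row was at 66.5 and 54.3 FPKM (-0.29). EIF4ENIF1, which carries eIF4E into the nucleus, was at 5.98 and 4.99 FPKM (-0.26).

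The genes for scanning, start site choice and subunit joining were close to level, with a median of 0.03 over 5 genes. EIF1, which keeps the scanning ribosome open, was the exception at 365 FPKM in siNT and 237 in siPAX9 (-0.62), and its paralog EIF1B had -0.19. EIF1AX (0.03), EIF5B, which joins the ribosomal subunits (0.08), and EIF5, which triggers GTP hydrolysis by eIF2 (0.29), were slightly higher. EIF6, which keeps the large subunit from joining early and also acts in its maturation, was at 75.3 and 83.5 FPKM (0.15).

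EEF1A1 and EEF2 had the highest levels of all factor genes in both groups. All 5 eEF1 genes past the minimum were lower, with a median of -0.71. Of all symbols 54.8% were lower by any amount, or 72.2% at a mean FPKM of at least 100. EEF1E1, counted among the 5, shares its row with other genes, as described below. EEF1A1, at chr6:74225473-74230755, was at 1815 FPKM in siNT and 1042 in siPAX9 (-0.80). EEF2 was at 1509 and 775 FPKM (-0.96), the largest absolute difference after that of EEF1A1. The 3 subunits of eEF1B lay close together, with EEF1D at 278 and 171 FPKM (-0.71), EEF1B2 at 485 and 314 FPKM (-0.63) and EEF1G at 678 and 448 FPKM (-0.60). The level of EEF1A1 was 3.74 times that of EEF1B2 in siNT and 3.32 times in siPAX9. A 1772-base row without a symbol that matched EEF1A1 was at 2659 FPKM in siNT, so this ratio and the next sum are uncertain. Summed over EEF1A1, EEF2 and the eEF1B subunits, 4765 FPKM in siNT stood against 2750 in siPAX9, a ratio of 0.577.

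EEF2K, the kinase that inhibits eEF2, was at 12.1 FPKM in siNT and 14.0 in siPAX9 (0.21), so that EEF2 was at 125 times its level in siNT and 55.5 times in siPAX9. EIF5A, which relieves stalled ribosomes and is the protein that carries hypusine, was at 488 and 341 FPKM (-0.52). EIF5AL1, a near-identical copy of EIF5A, had -0.41, and the paralog EIF5A2 was barely present at 1.15 and 1.12 FPKM. EEF1E1, which belongs to the complex of aminoacyl-tRNA synthetases, shares a row with TXNDC5 and BLOC1S5 at 132 and 77.7 FPKM (-0.76), so its own level is uncertain. The methyltransferase genes EEF1AKMT1 and EEF2KMT had -0.54 and -0.32.

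**Figure D4:**
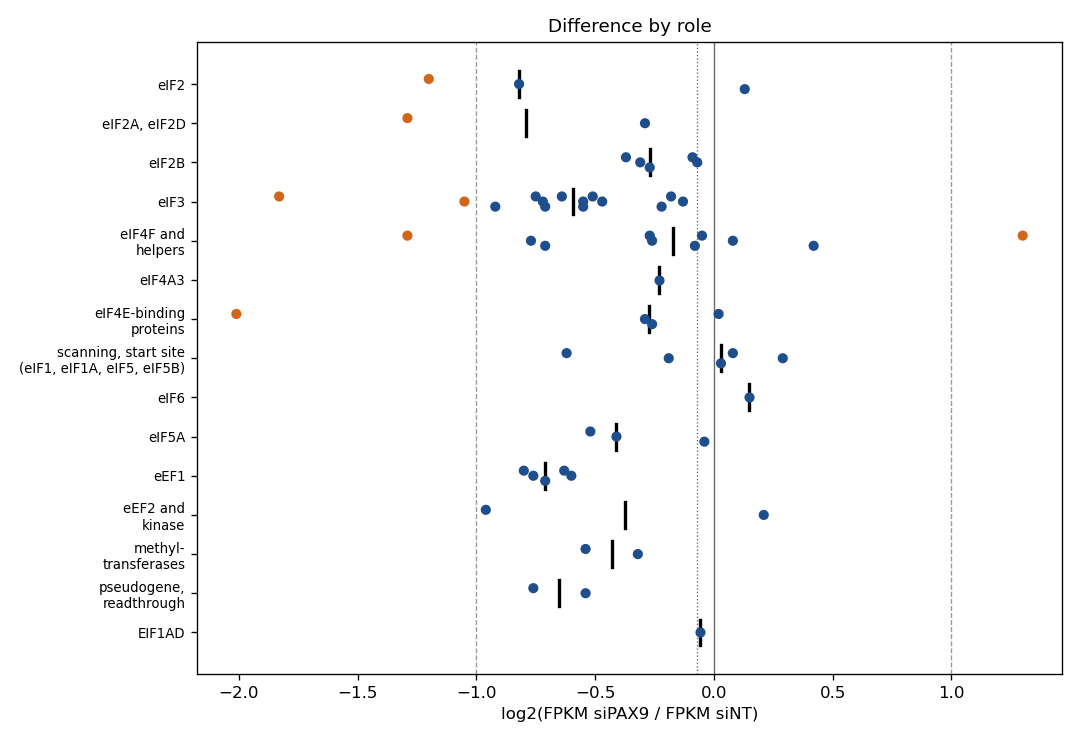
Log2 ratio of siPAX9 over siNT for the 60 genes past the minimum by role, 1 point a gene, without error. Black bars are role medians, orange points are at least 2-fold different (dashed lines), and the dotted line is the median of all symbols at -0.07. All points of eIF3 and eEF1 lie below 0, while the scanning group and eIF4F lie on both sides.

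Near-identical copies limit how surely some of these levels belong to the named gene. Rows without a symbol and of at most 2000 bases were compared with the transcripts of the members, and 130 rows that reached 1 FPKM in either group matched at 90% identity or more over at least 80% of the row. They matched 26 members, with EEF1A1 (38 rows), EIF4B (16) and EIF3L (10) the most frequent. A 1772-base row at chr7:22549916-22551687 (hg19) that matched EEF1A1 at 99.4% was at 2659 FPKM in siNT and 1542 in siPAX9 (-0.79), close to the -0.80 of EEF1A1 itself. A 1444-base row on chromosome 12 that matched EIF2S3 at 98.2% was at 220 and 102 FPKM (-1.11), while the other 2 rows that matched EIF2S3, of 83 and 78 bases and at 91.4 and 90.6% identity, were higher in siPAX9 (0.42 and 1.54). A 1512-base row on chromosome 9 that matched EIF4B at 98.1% was at 110 and 56.5 FPKM (-0.96). Some shorter rows stood far above their genes in FPKM, and others far below, such as a 100-base row that matched EEF1A1 at 11.7 FPKM in siNT. The highest match of EEF1A1, a row of 126 bases at 99.1% identity, was at 26360 and 14435 FPKM, and that of EIF4B, a row of 91 bases at 100% identity, at 5752 and 2324 FPKM. Reads of a gene and of such a copy could be split by the authors' counting, so the levels of these genes are uncertain, and whether each match is a gene copy or a repeat was not tested.

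Other genes of the pathway were counted in the same way, and each count stands against 54.8% of all symbols lower by any amount, 7.22% called lower and 7.75% called higher. Of the 83 cytoplasmic ribosomal proteins past the minimum, 81 were lower in siPAX9, 14 of them at least 2-fold, and 1 was at least 2-fold higher, with a median of -0.75. Of all symbols with a mean FPKM of at least 300, many of which are these ribosomal proteins, 18% were at least 2-fold lower. The log2 ratios of the ribosomal proteins ran from -3.98 (RPS28, 98.6 and 6.23 FPKM) to 1.26 (RPL39L, 0.917 and 2.2 FPKM). RPL39L, the gene called higher, reached 1 FPKM only in siPAX9 and so had to be higher there. RPL22L1 (-2.43) and RPL3 (-1.74) were also among the lower genes. All 20 cytosolic aminoacyl-tRNA synthetases, which load amino acids onto tRNA, were lower, 5 of them at least 2-fold, with a median of -0.67, from GARS (91.4 and 37.1 FPKM, -1.30) over YARS (-1.18), IARS (-1.14) and CARS (-1.13) to RARS (-0.04). The 11 mitochondrial translation factors had a median of -0.06, from MRRF (-0.79) to MTIF3 (0.31), and 0 were called.

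Of the 8 genes for termination, recycling and rescue, 7 were lower by any amount and none was called, against 54.8% of all symbols lower and 7.22% and 7.75% called lower and higher, with a median of -0.18 and a range from GSPT1, a release factor (34.4 and 23.6 FPKM, -0.54), to PELO (0.30). The 7 poly(A)-binding proteins and partners had a median of -0.40, from PABPC1, which binds the tail and eIF4G (990 and 569 FPKM, -0.80), to PABPC1L (0.27).

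The regulators of eIF2 and eIF4E did not go one way. Of the 8 genes around eIF2 phosphorylation, 5 were higher and 3 lower, against 54.8% of all symbols lower, from ATF4, the transcription factor whose translation rises when eIF2 is phosphorylated (404 and 157 FPKM, -1.37), to EIF2AK2, the kinase that senses double-stranded RNA (10.9 and 19.8 FPKM, 0.86). ATF4 was the 1 called gene of the 8, against 7.22% of all symbols called lower and 7.75% called higher. The 11 genes of mTORC1 and the eIF4E kinases had a median of 0.02, from MLST8 (-0.41) to MKNK2 (62.5 and 94.1 FPKM, 0.59).

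The enzymes that modify eIF5A and eEF2 lay on both sides. DHPS, which makes the first step of hypusine, was at 42.0 and 24.4 FPKM (-0.78) and DOHH, which makes the second, at 8.19 and 7.96 FPKM (-0.04). Of the 7 genes for diphthamide, the residue that eEF2 carries, 4 were lower and 3 higher, a split near that of all symbols, of which 54.8% were lower, from DPH5 (18.8 and 8.22 FPKM, -1.19, called) to DPH3 (0.57).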

How the data were processed

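RNA-seq of 6 MCF10A samples, 3 siNT and 3 siPAX9, was analysed from the authors' deposited table. The authors aligned single-end reads to hg19 with Bowtie 2, quantified them with Cufflinks within Partek Flow (the study's methods state the Partek Flow release, and versions of Bowtie 2 and Cufflinks are not given in the sources used here) and deposited 1 FPKM per row and group, pooled over samples. The study's methods give a range of total reads over the samples, but the table holds no reads per sample or row and no library scaling, so no error could be put on an FPKM. The authors' own fold changes, test statistics, p-values and q-values were not used.

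Rows were split at commas into symbols, the row with the highest mean FPKM was kept, and log2(siPAX9/siNT) was computed with nothing added. Calls needed a 2-fold difference and at least 1 FPKM in 1 of both groups. No test, error or leave-one-out value was possible from the pooled values. The members and lists were chosen with earlier results of these data known. Named genes were the called members, all members of the eIF2, eIF2B, eIF3, eIF4F, eIF4E-binding, eIF5A, eEF1 and eEF2 groups past the minimum, PAX9, and from each other list the lowest, the highest and up to 4 called genes. The remaining single genes, such as EIF1, EIF5, EIF6, EIF2D, EIF4A3, and the methyltransferases, were named after their values were seen. Locus starts were counted from 0 in the table and are given from 1. Rows without a symbol (13978, of which 12972 were searched) were compared with GENCODE release 44 transcripts with blastn 2.17.0 (word size 28) on sequences from samtools 1.23.1. Python 3.11.15, pandas 2.3.3, numpy 2.4.6, scipy 1.17.1 and matplotlib 3.10.9 were used. Alternatives were another minimum, 1 added to each FPKM, another fold, summed rows, single-symbol rows, centring, a narrower member list and other pyrimidine settings.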

Additional observations from a re-analysis of the deposited data

How the results depend on the processing

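The 6 genes called lower remained under 1 added to each FPKM. They also remained under no minimum, a minimum of 10, summed rows, single-symbol rows and the narrower member list, which could not change them. Each of the 6 has 1 row with 1 symbol, was above 10 FPKM in both groups and is on the narrower list. Centring on the median of all symbols left 5, without EIF3E. With a fold of 1.5 the lower genes numbered 22 and with a fold of 4 only 1. The 1 higher gene was lost (0 genes) with a fold of 4 and, in an alternative chosen after seeing the data, when each symbol was read from a row of its own strand, where EIF4E2 had a log2 ratio of 0.02 (0 higher genes as well at a mean FPKM of at least 100). Summed over its rows EIF4E2 had 1.20. The median over all factor genes lay between -0.47 and -0.31 over the alternatives, and the 28 role medians recomputed moved by less than 0.1. Of 184 recomputed values of single genes 4 moved by more and 0 changed sign among called genes. Centring took the same -0.07 from every value, which is under 0.1, so it could move no role median or single gene by more. Summed rows could change only the 5 members with several rows. Much of this stability was therefore fixed in advance. The share with a pyrimidine start was 37.5% with a C allowed within 3 bases of the start (19.1% of all symbols) and 20.8% with at least 6 pyrimidines after the C (3.97% of all symbols). No paired analysis was possible because the table holds 1 combined value a group, and leaving out a replicate could not be run for the same reason. The table gives no read count behind an FPKM, so no error could be put on low values such as those of EIF5A2 and PAX9.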

Other observations

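Of the 38 rows without a symbol that matched EEF1A1 and reached 1 FPKM in either group, 19 had a lower FPKM after PAX9 depletion. They were 13 of 16 rows with a mean FPKM of at least 100 (median log2 ratio -0.84) and 6 of 22 rows under 100 (1.15). Of the 22 rows, 8 reached 1 FPKM only in siPAX9 and so had to be higher there, and 1 only in siNT and had to be lower. The median of 1.15 includes these rows. All 16 rows that matched EIF4B were lower, with a median of -1.08, and 8 of 10 that matched EIF3L were lower, with a median of -1.85. Of all 130 matching rows, 87 were lower, 37 of them at least 2-fold, and 25 were at least 2-fold higher. Rows that matched EIF4A2 (1 of 5 lower), EEF2K (1 of 4) and EIF3I (0 of 2) went mostly the other way. Several rows of a gene lie side by side and could share its reads, so they are not separate evidence. The share over all rows without a symbol was not computed.

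Small RNAs and neighbouring genes whose rows carry the same locus as a factor gene were also listed. All 8 small RNAs with a row of their own that reached 1 FPKM in either group are given. SNORA48 and SNORD10, small nucleolar RNAs within EIF4A1, were at 117 and 40.6 FPKM in siNT and 72.9 and 27.8 FPKM in siPAX9 (-0.68 and -0.55), and SNORA41, within EEF1B2, was at 59.7 and 33.9 FPKM (-0.82). SCARNA27, in the locus of EEF1E1, and SNORA28, in that of EIF5, were each at 5.76 FPKM in siNT and listed at 0 in siPAX9, while EIF5 itself was slightly higher (0.29). SCARNA9L, in the locus of EIF1AX, was at 2.98 and 2.5 FPKM (-0.25). SNORA19, within EIF3A, was at 6.99 and 9.56 FPKM (0.45) and MIR590, a microRNA gene within EIF4H, at 105 and 154 FPKM (0.56), both opposite to their hosts. BANF1, a neighbour of EIF1AD, was at 68.2 and 36.2 FPKM (-0.91) while EIF1AD was at 7.03 and 6.73 FPKM (-0.06). TJP3, in the locus of EEF2, was at 3.28 and 8.53 FPKM (1.38), opposite in direction to EEF2. In the same locus MRPL54 (-0.49) and APBA3 (-0.12) were lower and the row of DAPK3 and MIR637 (0.48) higher. The neighbouring genes named are examples picked without a set rule. Others also differed, such as GPR27 in the locus of EIF4E3 (-2.31) and RFC4 in that of EIF4A2 (-1.11).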
